A study of Mus musculus with 18 samples.

Results

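Short domain-free gaps are stretches of mouse chromosomes that lie between repressive chromatin domains and belong to none of them. They were defined by the domain lists themselves, as unbroken stretches of 20 kb up to under 500 kb, on a 1 kb grid over chromosomes 1 to 19, that no domain of any of 4 deposited lists covers. There were 908 such gaps among 1479 domain-free stretches of any length. The lists map Lamin B and the histone mark H3K9me2 by chromatin immunoprecipitation and sequencing in embryonic stem cells (ESC) and in cardiomyocytes (CM) derived from them. Because the same lists chose the gaps, their number, lengths and borders are a description and carry no test.

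The nuclear lamina is a protein mesh that lines the inner nuclear membrane, and Lamin B is one of its main proteins. Chromatin that touches it forms lamina-associated domains, which are long, gene-poor and mostly silent. H3K9me2, dimethylated lysine 9 of histone H3, is deposited mainly by the enzymes G9a and GLP, is typical of silent chromatin, and is enriched at the nuclear periphery. Sequence outside such domains is usually assigned to the nuclear interior, where most active genes lie, but its position and activity were not measured here. A short gap is a place where a small piece of chromatin in none of the listed domains is flanked closely on both sides by a repressive domain. The domains on either side may come from different antibodies or from different cell types.

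The study made 18 libraries. Wild-type ESC grown in serum-free 2i medium without feeder cells gave 2 Lamin B, 2 H3K9me2 and 1 input library, and wild-type CM, collected on day 10 of differentiation as embryoid bodies, gave the same numbers. A further ESC line, CMV-creERT; Hdac3f/f, carries floxed alleles of the histone deacetylase gene Hdac3 and a CMV-driven Cre recombinase that tamoxifen activates, and was kept on feeder cells with serum. It gave 2 Lamin B, 2 H3K9me2 and 1 input library without tamoxifen, and 2 Lamin B and 1 input library after 24 h with 1 µg/ml tamoxifen, which deletes Hdac3. The labels name no step that purified the CM, so other cells of the embryoid bodies may have been collected with them, and domain lists hold no marker gene level with which to check either cell type.

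There is 1 list per antibody and cell type, shared by all libraries that name it. The labels of 6 libraries name the ESC Lamin B list, 2 each of wild-type, floxed and Hdac3-deleted cells. The labels of 4 libraries name the ESC H3K9me2 list, 2 wild-type and 2 floxed, and each CM list is named by 2 wild-type libraries. The labels do not say which of these libraries entered a list, so ESC borders may come from wild-type cells or from a mixture. No value per library and no depth is known, so no difference between ESC and CM below has a replicate error. The number of libraries, their unknown depth and the culture of part of the ESC may differ between the cell types' lists, and their part in the results was not tested. The domain edges lie on bins of 9 kb (ESC Lamin B), 11 kb (CM Lamin B), 10 kb (ESC H3K9me2) and 20 kb (CM H3K9me2), which limits how precisely a gap edge is placed. Positions are in mm9. Gene annotation and sequence of that build were not used here, so the gaps are described by position, length and borders, without their genes or bases. Whether reads can be placed in a given gap was not checked either.

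The gaps were numerous and together short. They made up 61.4% of all domain-free stretches, but their 150.1 Mb was 15.1% of the 996.8 Mb of domain-free sequence and 6.28% of the 2391 Mb between the first and last domains of the chromosomes. The 511 stretches of 500 kb or more held 84.9% of the domain-free sequence, and 60 stretches under 20 kb held 0.0656%. The median gap was 128.5 kb long, with 56.75 kb at the lower quartile and 253 kb at the upper.

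**Figure D1:**
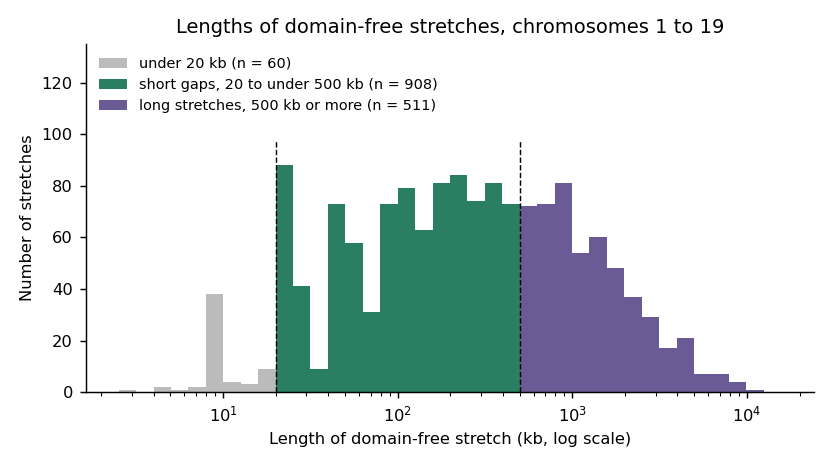
Number of domain-free stretches by length in kb (log axis) on chromosomes 1 to 19, with dashed lines at the limits of 20 kb and 500 kb. The 908 short gaps join on to the 511 long stretches without a break at the upper limit.

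Lengths were spread over the whole allowed range. Gaps of 20 to under 50 kb numbered 195 (21.5%) and held 3.77% of the gap sequence. Those of 100 to under 200 kb, a wider class, numbered 223 (24.6%) and held 31.7 Mb, and the 73 gaps of 400 to under 500 kb held 32.3 Mb. Exactly 20 kb was the length of 77 gaps, a multiple of the 10 kb and 20 kb bins of the H3K9me2 lists.

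The limits cut through a continuous range. Just under the upper limit were gaps of 490 kb (chr2:125330001-125820000), 486 kb (chr18:49860001-50346000) and 480 kb (chr1:162720001-163200000, the first by position of 8 gaps of that length). Just beyond it were 6 stretches of 500 kb, among them chr1:188320001-188820000, chr7:138470001-138970000 and chr7:142560001-143060000. At the lower limit, the first by position of the 77 gaps of 20 kb were chr1:51390001-51410000, chr1:132260001-132280000 and chr1:166820001-166840000. Stretches of 19 kb at chr1:179861001-179880000, chr4:89180001-89199000 and chr7:18153001-18172000 were too short to be counted.

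H3K9me2 domains, more than Lamin B domains, set the edges of the gaps. Of the 1816 gap sides, 1499 (82.5%, Wilson 95% interval 80.7 to 84.2, counting error only) had H3K9me2 without Lamin B in the next 1 kb. Lamin B without H3K9me2 bordered 292 sides (16.1%, 14.5 to 17.8) and both marks met the edge of 25 (1.38%). The bins of the Lamin B lists seldom share an edge with those of the H3K9me2 lists, which limits the last count. ESC H3K9me2 touched 974 sides (53.6%), CM H3K9me2 819 (45.1%), CM Lamin B 219 (12.1%) and ESC Lamin B 109 (6.00%). CM Lamin B therefore bordered more gap sides than ESC Lamin B did, while for H3K9me2 the ESC list bordered more than the CM list.

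Usually a single list came nearest. One list alone bordered 1523 sides (83.9%, 82.1 to 85.5), with ESC H3K9me2 on 696 sides, CM H3K9me2 on 543, CM Lamin B on 195 and ESC Lamin B on 89. Both H3K9me2 lists and no other ended at the same kilobase on 260 sides (14.3%). All 4 lists did so on 1 side. Since the lists have different bins, edges that lie a few kb apart count as separate. The 10 kb and 20 kb bins of H3K9me2 share every 20 kb edge, whereas the 9 kb and 11 kb bins of Lamin B seldom meet them. Exact coincidence was thus open far more often to the H3K9me2 lists, and these counts depend on that. With a domain within 20 kb counted as bordering, sides of a single list fell to 51.1% and sides of H3K9me2 without Lamin B to 69.2%.

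**Figure D2:**
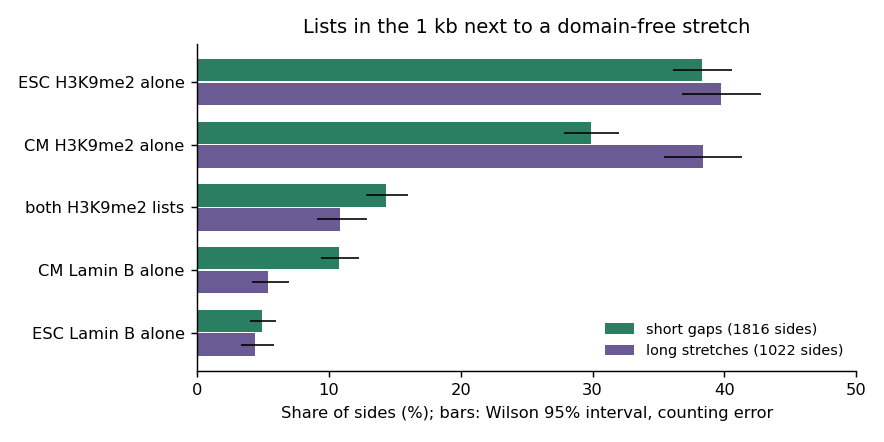
Share of the sides of short gaps (1816 sides) and of long domain-free stretches (1022 sides) with each list in the next 1 kb, for the 5 most common borders. Error bars are Wilson 95% intervals for counting error only. H3K9me2 lists lead at both kinds of stretch, and CM Lamin B alone stood at 10.7% of short-gap sides and 5.38% of long-stretch sides.

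The long stretches had a similar order of borders. H3K9me2 without Lamin B was next to 88.9% (86.9 to 90.7) of their 1022 sides, and any Lamin B next to 11.1%, against 17.5% of short-gap sides. The intervals do not overlap, but the length of a stretch depends on the same borders, neighbouring stretches share blocks, and the difference was not tested. The share of sides bordered by CM lists alone was 41.0% at short gaps and 44.2% at long stretches, and by ESC lists alone 43.4% and 44.1%.

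The lists did not offer equal numbers of edges. ESC H3K9me2 had 2431 domains on these chromosomes and CM H3K9me2 1140, against 708 for ESC Lamin B and 826 for CM Lamin B. Of all domain edges in a list, 35.9% bordered a short gap for CM H3K9me2, 20.0% for ESC H3K9me2, 13.3% for CM Lamin B and 7.70% for ESC Lamin B. Per edge, then, CM H3K9me2 came first, although the ESC list supplied more borders in number. The CM H3K9me2 list also has the widest bins.

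Somewhat more gaps had the same list on both sides than had different lists. The same list bordered both sides of 502 gaps (55.3%, 52.0 to 58.5) and of 55.2% of the long stretches. That list was ESC H3K9me2 at 294 gaps and CM H3K9me2 at 207, CM Lamin B at 20 and ESC Lamin B at 6, where a gap with several shared lists counts under each. In 636 gaps (70.0%, against 79.8% of long stretches) H3K9me2 lists alone made up both borders, and in 39 (4.30%) Lamin B lists alone did. The most frequent single combination was ESC H3K9me2 on 1 side and CM H3K9me2 on the other, at 175 gaps with a median of 140 kb. ESC H3K9me2 alone on both sides followed at 167 gaps with a median of 100 kb.

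By cell type, 519 gaps (57.2%) had lists of ESC and of CM among their borders. ESC lists alone bordered 206 (22.7%) on both sides and CM lists alone 183 (20.2%). Long stretches had similar shares, 56.9%, 20.9% and 22.1% in the same order, so this split is not particular to the short gaps.

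The Lamin B-free intervals that held the gaps had wider medians than the H3K9me2-free ones. The interval between ESC Lamin B domains that held a gap had a median width of 2029.5 kb (25th to 75th percentile 549 to 5123 kb), and the CM Lamin B interval 1221 kb (401.5 to 3905). The corresponding H3K9me2 intervals were 200 kb in ESC (90 to 350) and 400 kb in CM (180 to 1020). Over all intervals of a list the medians were 594 kb (ESC Lamin B), 539 kb (CM Lamin B), 130 kb (ESC H3K9me2) and 400 kb (CM H3K9me2). Several gaps can share an interval: the gaps with an ESC Lamin B interval lay in 444 different ones, with up to 13 gaps in 1 of them. On 1 side of a gap a list may have no further domain, which left 44 gaps without an ESC Lamin B interval, 13 without one of CM Lamin B, and, for each of the H3K9me2 lists, 11 without one.

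**Figure D3:**
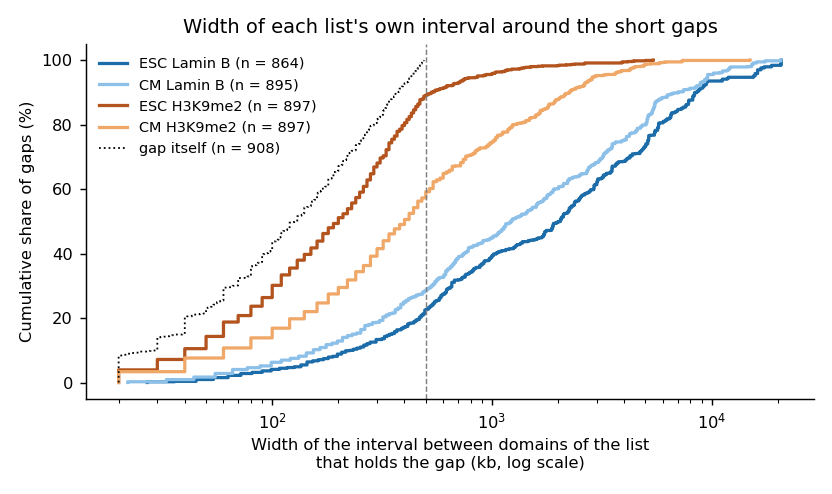
Cumulative share of short gaps by the width, in kb on a log axis, of the interval between neighbouring domains of each list that holds the gap. The dotted line is the gap itself and the dashed line marks 500 kb. Lamin B intervals pass 500 kb for most gaps, with medians of 2029.5 kb in ESC and 1221 kb in CM, while ESC H3K9me2 intervals stay near the gap length, with a median of 200 kb.

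A minority of the gaps were interruptions between neighbouring Lamin B domains. In 160 gaps (17.6%, 15.3 to 20.2) the Lamin B-free interval was under 500 kb wide in ESC and in CM. In a further 96 (10.6%) it was so in CM only, and in 35 (3.85%) in ESC only. The other 617 gaps (68.0%, 64.8 to 70.9), with 108.6 Mb of the gap sequence, had a wider or no such interval in either cell type. Their median Lamin B-free widths were 3213 kb in ESC and 2634.5 kb in CM, against 190 kb and 540 kb between H3K9me2 domains. In those 617 gaps H3K9me2 without Lamin B bordered 92.8% of 1234 sides. The 617 were picked by their Lamin B widths, so the wide Lamin B medians and part of this share follow from the choice.

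In the 160 gaps between nearby Lamin B domains the marks ended close together. Their median Lamin B-free widths were 256.5 kb in ESC and 220 kb in CM, and their H3K9me2-free widths 210 kb and 220 kb. H3K9me2 was also free over under 500 kb in ESC and CM at 137 of them. Lamin B without H3K9me2 bordered 121 of their 320 sides (37.8%) and H3K9me2 without Lamin B 189 (59.1%). The Lamin B edge lay within 20 kb of the H3K9me2 edge on 57.8% of sides in ESC and 53.0% in CM. Where they differed by more, Lamin B stopped farther from the gap on 24.4% of sides in ESC and 29.8% in CM, and H3K9me2 did so on 17.8% and 17.2%. Over all gaps the edges of the 2 marks lay within 20 kb on 21.6% of sides in ESC and 25.4% in CM. The 160 gaps were picked by their Lamin B widths, which keeps Lamin B near the gap. Part of the closeness of the marks therefore follows from the choice.

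Edges of the same mark also lay close together in the different cell types at these 160 gaps. CM and ESC Lamin B edges were within 20 kb of each other on 69.7% of 320 sides. ESC Lamin B stopped farther from the gap by over 20 kb on 20.3%, and CM Lamin B did so on 10.0%. For H3K9me2, 58.9% of 319 sides were within 20 kb, ESC ended farther away on 25.1% and CM on 16.0%. Over all gaps the CM and ESC edges were within 20 kb on 44.5% of sides for Lamin B and 42.3% for H3K9me2. The group of 160 was picked by the Lamin B widths themselves, so its Lamin B values are a description of the choice.

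Gaps with all 4 lists close to both edges were rare. None had all 4 lists at both edges, but the bins of the lists did not allow another result. Places where domains of all 4 lists can end at the same kilobase lie farther apart than the longest short gap. That count therefore says nothing about how rare such gaps are, and the wider distances are given instead. All 4 were within 20 kb on both sides at 16 gaps (1.76%), within 50 kb at 37 (4.07%, 2.97 to 5.57), within 100 kb at 67 (7.38%) and within 200 kb at 119 (13.1%).

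The longest of the 16 was the 340 kb gap at chr4:121840001-122180000. Here the 4 intervals were 360 kb (ESC Lamin B), 363 kb (CM Lamin B), 350 kb (ESC H3K9me2) and 340 kb (CM H3K9me2). The covered blocks beside it were 205 kb long on the left and 301 kb on the right, and each held domains of all 4 lists.

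The next was the 300 kb gap at chr2:100300001-100600000, which interrupts a long repressive region. On its left all 4 lists had a domain of 5962 to 5980 kb, and on its right domains of 750 kb (ESC H3K9me2) to 900 kb (CM H3K9me2). The third, the 270 kb gap at chr2:56952001-57222000, was bordered by ESC Lamin B on the left and CM Lamin B on the right. Its left domains were 3860 kb (CM H3K9me2) to 3888 kb long (ESC Lamin B). In these gaps nearly the same short piece of sequence was free in every list.

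**Figure D4:**
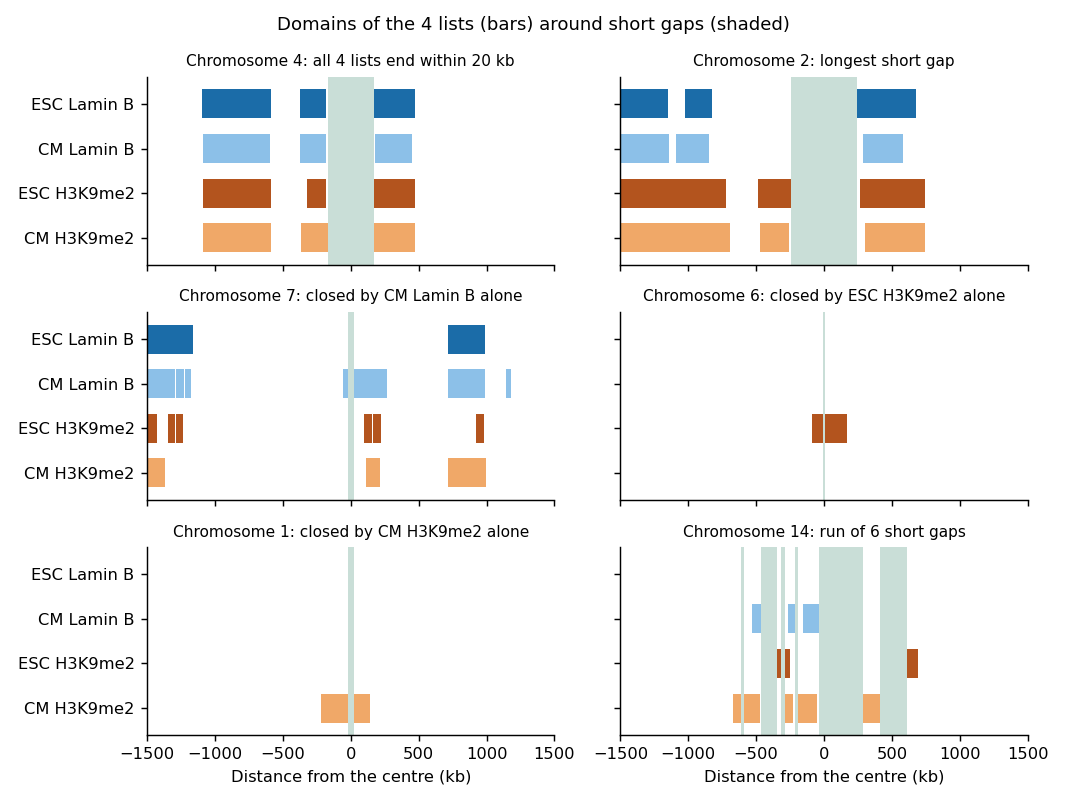
Domains of the 4 lists (bars, 1 row for each list) within 1500 kb of the centre of 5 short gaps and of a run of 6 short gaps, all shaded. The chromosome 4 gap of 340 kb is met by all 4 lists, whereas the gaps on chromosome 6 (20 kb) and chromosome 1 (40 kb) divide 2 small domains of a single list with no other domain in view.

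Other gaps were closed by 1 list alone. ESC H3K9me2 was the sole border on both sides of 167 gaps, and at 122 of them (73.1%) the other 3 lists together left 500 kb or more free. Their median width in the other 3 lists was 1020 kb. CM H3K9me2 was the sole border of 95 gaps, of which 23 (24.2%) were that wide in the others, with a median of 290 kb. CM Lamin B closed 15 gaps alone and ESC Lamin B 5, and 3 and 0 of these were that wide in the others. Most gaps closed by ESC H3K9me2 alone would thus be part of a long stretch without that list.

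The example with the widest surroundings was the 20 kb gap at chr6:84630001-84650000. It separates ESC H3K9me2 domains of 80 kb and 160 kb, and without that list 7320 kb would be free of any domain. Another was the 340 kb gap at chr13:57320001-57660000, between ESC H3K9me2 domains of 60 kb and 160 kb in 6160 kb of sequence free of the other lists. For CM H3K9me2 the widest were a 40 kb gap at chr1:38660001-38700000 in 4450 kb, between domains of 200 kb and 120 kb, and a 100 kb gap at chr16:9660001-9760000 in 3910 kb, between domains of 200 kb and 220 kb.

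Some gaps were closed by Lamin B alone. The 44 kb gap at chr18:37301001-37345000 lay between CM Lamin B domains of 330 kb and 253 kb, with no domain of the other lists over 5430 kb. The 44 kb gap at chr7:8844001-8888000 lay between CM Lamin B domains of 33 kb and 242 kb, with 1256 kb free of the other lists. For ESC Lamin B the widest were 216 kb at chr1:178740001-178956000 and 144 kb at chr7:48753001-48897000, where the other 3 lists left 299 kb and 159 kb free.

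The gaps were narrower in the ESC lists than in the CM lists. The stretch free of ESC Lamin B and ESC H3K9me2 around a gap had a median of 180 kb, and that free of both CM lists 320 kb. CM was wider by over 40 kb at 430 gaps (47.4%, 44.1 to 50.6), narrower by over 40 kb at 216 (23.8%) and within 40 kb at 245 (27.0%), and the others (10 for ESC, 7 for CM) lay outside the span of that cell type's domains. The 2 antibodies differed in direction. For H3K9me2 the CM interval was wider by over 40 kb at 471 of 888 gaps (53.0%) and narrower at 198 (22.3%). For Lamin B it was narrower at 461 of 864 gaps (53.4%) and wider at 155 (17.9%). The medians over all intervals of a list went the same way, so these directions are not particular to the gaps. They were 130 kb in ESC and 400 kb in CM for H3K9me2, and 594 kb and 539 kb for Lamin B. The shortest H3K9me2 domain was 20 kb in ESC and 40 kb in CM.

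Many gaps were short in the lists of 1 cell type and not in those of the other. At 506 gaps (55.7%) the free stretch was under 500 kb in ESC and in CM. At 310 (34.1%) it was so in ESC and not in CM, at 79 (8.70%) in CM and not in ESC, and at 13 (1.43%) in neither. Gaps outside the span of a cell type's domains count as not short in it. The edges were exactly those of the ESC lists at 347 gaps (38.2%), those of the CM lists at 325 (35.8%), and those of both at 27 (2.97%). Exact matches between the cell types are limited by their different bins. Leaving out the ESC H3K9me2 list merged 303 of the 908 gaps (33.4%) into stretches of 500 kb or more, whereas leaving out CM H3K9me2 did so for 46 (5.07%), CM Lamin B for 23 (2.53%) and ESC Lamin B for 7 (0.771%).

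Short gaps seen in the ESC lists alone were more often filled by the other cell type than those seen in the CM lists alone. The ESC lists gave 1237 gaps of 20 to under 500 kb, of which 407 (32.9%) lay wholly in CM domains and 808 (65.3%) still held a member. Filled ones were short, with a median of 60 kb against 153.5 kb for those that held a member. The CM lists gave 591 such gaps, of which 44 (7.45%) lay wholly in ESC domains and 534 (90.4%) held a member. On a common 20 kb grid the filled shares were 32.4% and 9.97%, in the same order. That grid only moved domain ends outward, so the lists still came from different bins, and the part of the bins was not tested. With 1 list per antibody and cell type there was no test of this difference.

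Covered blocks between gaps were of distinct kinds. The domain-free stretches of at least 20 kb divided the chromosomes into 1438 covered blocks. Of these, 747 (51.9%) held H3K9me2 domains and no Lamin B, with a median of 130 kb, and 658 (45.8%) held both marks, with a median of 880 kb. A further 33 held Lamin B alone. Of the 596 blocks with a short gap on each side, 295 (49.5%) were H3K9me2 only, with a median of 120 kb, and 284 (47.7%) held both marks, with a median of 725 kb. The 218 blocks with no short gap beside them were H3K9me2 only in 60.1% of cases.

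Read from the gaps, Lamin B was about as often in both neighbouring blocks as in neither, and most often in 1 of them. Lamin B lay in both neighbouring blocks of 273 gaps (30.1%, 27.2 to 33.1), in 1 of them at 359 (39.5%) and in neither at 276 (30.4%, 27.5 to 33.5). The median gap was 144 kb in the first kind, 130 kb in the second and 100 kb in the third. All 4 lists were present in both neighbouring blocks of 143 gaps (15.7%), which had a median of 180 kb. At 401 gaps (44.2%) at least 1 neighbouring block consisted of ESC H3K9me2 alone, against 50 (5.51%) for CM H3K9me2, 33 (3.63%) for CM Lamin B and 4 (0.441%) for ESC Lamin B. The share of such blocks among all blocks is not given here. ESC H3K9me2 had 2431 domains with a median of 140 kb, and CM H3K9me2 1140 with a median of 460 kb. All 747 H3K9me2-only blocks had a median cover of 100% by ESC and 0% by CM H3K9me2. Those with no short gap beside them had 98.1% and 92.3%.

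Breaks between long repressive blocks were few. Both neighbouring blocks were at least 1 Mb long at 30 gaps (3.30%, 2.32 to 4.68), with a median gap of 257 kb, and Lamin B was present in both at 29 of these. At 158 gaps (17.4%) both neighbouring blocks were under 200 kb, and the median gap was 94 kb.

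Many gaps followed one another, as there were 908 short gaps against 511 long stretches. The next domain-free stretch of at least 20 kb on either side was another short gap for 395 gaps (43.5%). It was a short gap on 1 side and a long stretch on the other for 390 (43.0%), and a long stretch on both sides for 101 (11.1%). The others lay at a chromosome end, next to a short gap (12) or a long stretch (10). Where blocks of under 200 kb were taken to link gaps into a run, 466 gaps (51.3%) fell into 196 runs, of which 141 were pairs and 15 had at least 4 gaps.

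The run with the most gaps had 6, in 1.22 Mb at chr14:7280001-8500000. Its gaps were 20, 115, 30, 22, 326 and 200 kb long and took up 58.4% of it. CM H3K9me2 covered 36.1%, CM Lamin B 19.8%, ESC H3K9me2 5.74% and ESC Lamin B 0%. CM lists took part in 9 of its 12 sides.

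The second had 5 gaps in 1.62 Mb at chr5:52900001-54520000, of 480, 280, 260, 70 and 180 kb. No Lamin B domain lay in it, and H3K9me2 covered 14.2% in ESC and 7.41% in CM. Here small H3K9me2 islands alone divided the sequence.

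The third, chr14:41690001-42647000, also held 5 gaps, of 230, 100, 60, 170 and 55 kb. ESC H3K9me2 covered 20.9% of it, CM H3K9me2 14.6%, CM Lamin B 13.8% and ESC Lamin B 0%. As in the first run, Lamin B there came from the CM list alone.

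The longest gaps had varied surroundings. The longest, 490 kb at chr2:125330001-125820000, had ESC H3K9me2 on the left and ESC Lamin B on the right, and all 4 lists lay within 60 kb of its right edge. At the 486 kb gap chr18:49860001-50346000 both neighbouring blocks were long, 2200 kb and 2274 kb, with all 4 lists in each. The 480 kb gap at chr1:162720001-163200000 had ESC Lamin B on the left, where the nearest CM H3K9me2 domain ended 620 kb away.

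Of the other 480 kb gaps, the next by position, chr2:132300001-132780000 and chr3:34920001-35400000, were closed on the left by ESC H3K9me2 domains of 80 kb and 120 kb with no other list in the block. By the CM lists alone they were 1220 kb and 960 kb wide.

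**Figure D5:**
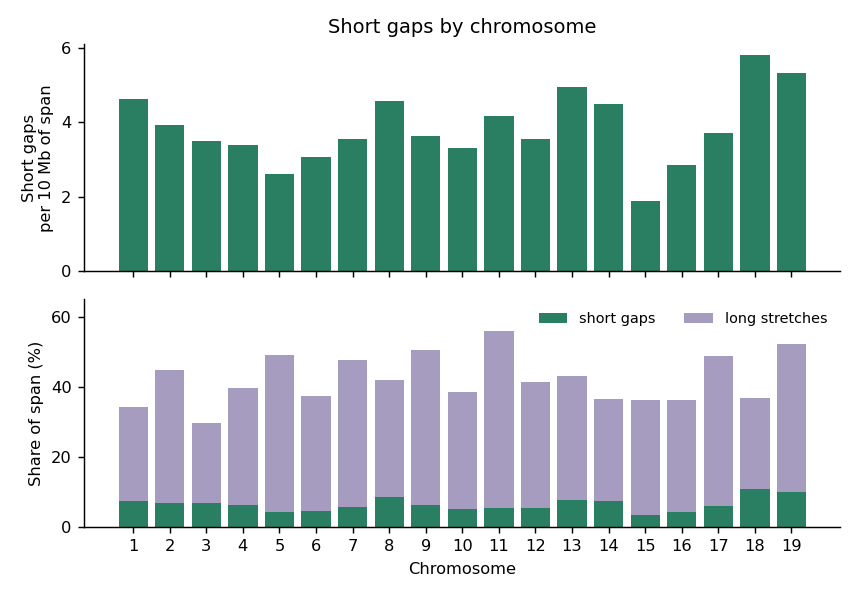
Upper bars give the number of short gaps per 10 Mb of chromosome span, from 1.89 on chromosome 15 to 5.82 on chromosome 18. Lower bars give the share of the span, in percent, in short gaps (dark) and in long domain-free stretches (light).

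The density of gaps varied about 3-fold between chromosomes. Over the 19 chromosomes it averaged 3.84 ± 0.966 gaps per 10 Mb (SD over chromosomes, which are not replicates). Chromosome 18 had the highest density, with 51 gaps or 5.82 per 10 Mb, and 10.8% of its span lay in short gaps. Chromosome 19 followed at 5.34 per 10 Mb and 9.95% of its span. Chromosome 15 had the lowest, with 19 gaps or 1.89 per 10 Mb and 3.32% of its span. The total domain-free share of chromosomes 18 and 15 was nearly equal, 36.9% and 36.4%, so their free sequence was divided differently.

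The kind of gap also varied by chromosome. Any Lamin B bordered 26.4% of gap sides on chromosome 3 and 10.5% on chromosome 15. Gaps in Lamin B-free intervals under 500 kb in ESC and CM numbered 18 of 69 on chromosome 2 and 16 of 58 on chromosome 13, but 1 of 51 on chromosome 18 and 3 of 55 on chromosome 14. On chromosome 18, then, nearly all of the many short gaps lay outside Lamin B-free intervals under 500 kb in both cell types. Gaps with such an interval in 1 cell type only are not in this count, among them chr18:37301001-37345000, with a CM Lamin B interval of 44 kb. Any Lamin B bordered 18.6% of the gap sides on this chromosome.

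Domains that bordered short gaps were not an extreme class of their lists. CM H3K9me2 domains touched a short gap in 639 of 1140 cases (56.1%), ESC H3K9me2 domains in 779 of 2431 (32.0%), CM Lamin B domains in 191 of 826 (23.1%) and ESC Lamin B domains in 103 of 708 (14.5%). The score that the authors deposited for each domain, used only as a rank within its list, had a median percentile of 46.5, 43.6, 38.0 and 47.6 in these domains. Their length had a median percentile of 45.6, 44.1, 40.7 and 44.8, so domains beside short gaps ranked slightly below the middle of their lists. Beside long stretches the median score percentiles were 52.1, 39.0, 48.5 and 67.9.

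Many gaps nonetheless changed when low-scoring domains were left out. Domains below the 25th percentile of their list's score made up 30.9% of the bordering CM Lamin B domains, 30.3% of ESC H3K9me2, 27.7% of CM H3K9me2 and 25.2% of ESC Lamin B. With domains below the 25th percentile of score left out of every list, 424 of the 908 gaps (46.7%) kept both edges, 219 became wider but stayed under 500 kb, and 263 (29.0%) became part of longer stretches. With domains below the median left out, 160 (17.6%) kept both edges and 539 (59.4%) became part of longer stretches.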

How the data were processed

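The submitters' processing notes name STAR, Picard, deepTools and the build mm9, without versions. Per the file headers, the authors' domains carry the settings g 10, bin auto and fdr 5. The sources used here name no domain caller and no way in which libraries were combined. Each deposited list gives domain starts and ends as other values in bp and the authors' score per domain, whose scale is not stated. The score served only for ranks and filters within a list.

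Python 3.11.15 placed the domains on 1 kb bins (pandas 2.3.3, numpy 2.4.6), and the search for gaps and borders was tested on simulated data. The simulated domains did not overlap, so borders shared by several lists were not tested. A list borders a side if it covers the next 1 kb. Shares have Wilson 95% intervals (scipy 1.17.1), which treat gaps as independent. Figures used matplotlib 3.10.9. The inputs and chromosomes X and Y were left out. No test was run, since the lists chose the members. Named regions were the 5 longest gaps, those nearest each length limit, the 3 longest with all 4 lists within 20 kb, the 2 per list with the widest surroundings in the other lists, the 3 runs with the most gaps and the extreme chromosomes, with ties taken in chromosome order. The members and lists were chosen with earlier results of these data known. Alternatives covered score, length limits, bins, domain ends, merging, omitted lists, chromosome X and border distance.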

Additional observations from a re-analysis of the deposited data

How the results depend on the processing

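The number of gaps, 908, became 314 with domains at or above the median score and 565 without the ESC H3K9me2 list, and stayed within 1.5 times of it under the other alternatives. The total length, 150.1 Mb, became 109.0 Mb with domains at or above the 25th percentile of score and 68.01 Mb at or above the median. It was 150.7 and 144.5 Mb with a minimum length of 10 or 50 kb, 82.6 and 313.0 Mb with a maximum of 300 or 1000 kb, and 144.7 Mb on a common 20 kb grid. It was 173.9 and 126.3 Mb with 20 kb removed from or added to domain ends, 145.8 Mb with domains merged across gaps under 50 kb, and 163.4 Mb with chromosome X. Without the ESC Lamin B, CM Lamin B, ESC H3K9me2 or CM H3K9me2 list it was 153.8, 152.7, 103.7 or 176.6 Mb.

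The share of gaps with the same list on both sides (55.3%) was 51.3% above the median score, 69.5% on the 20 kb grid, 50.2% with merging and 82.8% with bordering within 20 kb. Without each list, in the same order, it was 59.0, 64.0, 62.7 and 73.9%. Single-list sides (83.9%) were 86.2 and 87.4% under the score filters, 65.4% on the 20 kb grid, 97.6 and 98.0% without ESC or CM H3K9me2, and 51.1% with bordering within 20 kb. Sides of H3K9me2 without Lamin B (82.5%) were 70.3% on the grid, 84.6, 90.5, 68.9 and 76.4% without each list, and 69.2% with bordering within 20 kb. Sides of CM lists only (41.0%) were 37.3% above the median score, 29.7% on the grid, 44.4, 33.9, 88.8 and 16.4% without each list, and 23.8% within 20 kb. Gaps with all lists within 50 kb (4.07%) were 2.97% at the 25th percentile of score, 7.14, 6.70 and 9.56% without the ESC Lamin B, CM Lamin B or ESC H3K9me2 list, and 1.76 and 7.38% within 20 or 100 kb. The ESC gaps filled by CM domains (32.9%) were 37.2% above the median score, and the CM gaps filled by ESC domains (7.45%) were 9.97% on the 20 kb grid. These filled shares and their alternatives were chosen after seeing the data. Leaving out a list removes its borders by construction, and the cause of the other shifts was not tested.

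No paired analysis was possible because the libraries of a cell type and antibody share 1 list and have no values of their own here, so replicates could not be left out either. Depth is unknown, so its limit on the smallest gaps and domains was not tested.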
